A study of Mus musculus with 4 samples.

Results

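Astrocyte genes were followed in cultures labelled as mouse cortical neurons, in which calmodulin had been knocked down or knocked down and replaced. The set held 36 genes chosen by name as astrocyte markers and functions, and all 36 were among the 19938 genes with a value. A gene's value was the mean over the probe sets that carried its symbol and no other, which was 1 probe set for 35 of the genes and 2 for Glul. In the knockdown group (n = 2) the neurons had received lentiviruses expressing shRNAs against calmodulin. The rescue group (n = 2) had received the same shRNAs plus a wild-type calmodulin made resistant to them. Each of these samples was deposited as a ratio to control-virus cultures of its own repeat, so equality with control is a log2 ratio of 0. All groups came from pups at postnatal day 0 of a mixed SV129 x C57BL/6 background, and these were Syt1-deficient or wild type, though the labels do not say which sample was which. Infection took place on day 5 in vitro and RNA was taken on days 14 to 15, and the medium contained fetal bovine serum and Ara-C, which kills dividing cells such as glia. The labels do not say whether the 2 repeats were separate cultures, and the p-values therefore cover the spread between these samples alone, part or all of which may be technical.

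Astrocytes are the glial cells that take up glutamate and potassium released by neurons, exchange water and small molecules through channels and gap junctions, and supply lipids and matricellular proteins to synapses. Under injury or inflammation they become reactive, which is known for induction of intermediate filaments such as Gfap and Vim and of secreted proteins such as Lcn2 and Serpina3n. Primary neuron cultures usually hold some astrocytes. The deposited ratios carry no expression levels, so whether an astrocyte gene was well expressed here could not be read from them. In such bulk samples more cells of a type and more RNA per cell cannot be told apart.

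Among genes of the targeted protein, Calm2 had log2 ratios of -1.08 and -1.72 in the knockdown, against -0.84 and -1.28 in the rescue, and Calm3 had -1.32 and -2.40 in the knockdown, against -2.41 and -3.55 in the rescue. Both stood farther below control in knockdown repeat 2. The spread of all genes was widest in knockdown repeat 2, where their log2 ratios had a standard deviation of 0.349, against 0.242 in knockdown repeat 1 and 0.232 to 0.243 in the rescue. The medians over all genes lay between -0.02 and 0.02 in the 4 samples.

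Astrocyte genes stood slightly above control in the knockdown and about level with control in the rescue. The mean knockdown log2 ratio was above 0 for 35 of the 36, all but Fabp7 (and Ttyh1 under quantile normalization, at -0.0069), with a median of 0.29 (1.23-fold), beside a median of 0.00 over all genes. In the rescue 17 of the 36 means were above 0, with a median of -0.04, beside -0.01 over all genes. Both knockdown repeats were above control for 28 of the 36, beside 30.5% of all genes, and both rescue repeats were above control for 9, beside 24.9% of all genes. Both rescue repeats were below control for 12, beside 29.8% of all genes. The shifts were small for single genes, and no member passed the limma test at an adjusted p of 0.05 in any of the 3 comparisons. That test called 0.135% of all genes higher and 0.171% lower in the knockdown than in control.

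At an unadjusted p under 0.05, 15 members were higher and 0 lower in the knockdown than in control, where 6.93% of all genes were higher and 9.04% lower. When the model also held the repeat as a block, 8 members passed the adjusted threshold, all higher, beside 1.91% of all genes called higher. They were Hepacam, Gja1, Sox9, S100b, Thbs2, Cd44, Serpina3n and Cp. The block takes out whatever both groups of a repeat share, which includes their common control array, so its error for a ratio to control leaves that array's spread out. Without knockdown repeat 1, so that knockdown repeat 2 stood alone, 7 members passed, all higher, beside 2.90% of all genes called higher. They were Ntsr2, Id3, Thbs2, Cd44, Lcn2, Cp and Tnc. Without knockdown repeat 2 no member passed.

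**Figure D1:**
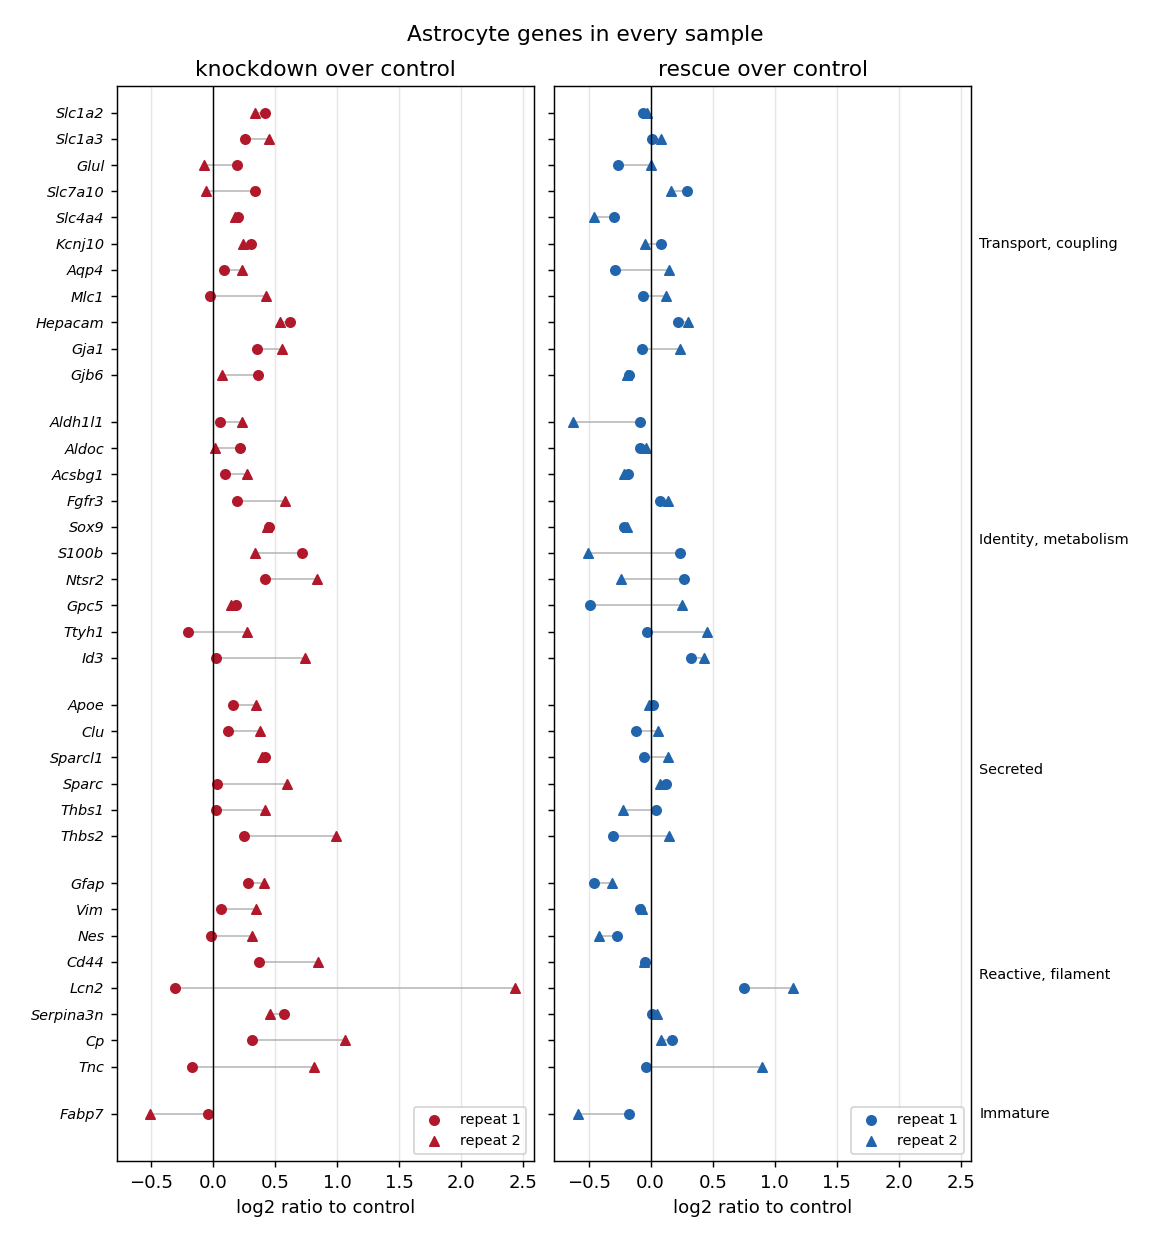
Log2 ratio to control of each of the 36 astrocyte genes, with knockdown in the left panel, rescue in the right panel, circles for repeat 1, triangles for repeat 2 and a grey line joining the 2 repeats of a group. In the knockdown 28 genes have both points to the right of 0, in the rescue 9 do, and the repeats of Lcn2 lie farthest apart, at -0.31 and 2.43 in the knockdown.

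Promoter windows are printed for 5 of the 28 members that stood above control in both knockdown repeats. Those of Gfap, Slc1a3, Ntsr2 and Acsbg1 hold the sequence that STAT factors bind, and that of Hepacam lacks it. STAT3 is known to drive Gfap in reactive astrocytes, and NFI factors are known for switching on Gfap and other astrocyte genes in development. The RefSeq table (GRCm38.p6) holds windows from 250 bases before to 50 bases after a gene's start for 31 of the 36 members, and Aqp4, Sox9, Clu, Sparcl1 and Thbs1 were not matched. The letters TTCNNNGAA, searched on both strands, were found for 5 of the 31 members (Slc1a3, Aldoc, Acsbg1, Ntsr2 and Gfap) and in 9.55% of the 27025 genes of the table. Of the 8 reactive members 1 (Gfap) had a match. Aldoc, also above control in both knockdown repeats, has a window with 2 matches that is not printed. The letters TTGGC, the core of an NFI site, also searched on both strands, were found for 19 of the 31 members and in 50.4% of all genes. The windows below run 5′ to 3′ on the gene's strand, with every match to either motif in capitals, and no match to one overlaps a match to the other. In Gfap (chr11:102897151-102897450, minus strand) the match begins 2 bases before the start. It begins 96 bases before the start in Slc1a3 (chr15:8710758-8711057, minus strand), 62 in Ntsr2 (chr12:16653220-16653519, plus strand) and 26 in Acsbg1 (chr9:54661836-54662135, minus strand). Hepacam (chr9:37367356-37367655, plus strand) holds 2 copies of TTGGC only. A match is a description of letters and not of binding.
Gfap: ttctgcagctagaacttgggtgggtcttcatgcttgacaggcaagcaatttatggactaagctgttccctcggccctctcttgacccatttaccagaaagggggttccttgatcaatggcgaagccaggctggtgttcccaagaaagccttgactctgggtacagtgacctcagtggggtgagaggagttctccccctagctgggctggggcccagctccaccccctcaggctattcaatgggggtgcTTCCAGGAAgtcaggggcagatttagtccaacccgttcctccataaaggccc
Slc1a3: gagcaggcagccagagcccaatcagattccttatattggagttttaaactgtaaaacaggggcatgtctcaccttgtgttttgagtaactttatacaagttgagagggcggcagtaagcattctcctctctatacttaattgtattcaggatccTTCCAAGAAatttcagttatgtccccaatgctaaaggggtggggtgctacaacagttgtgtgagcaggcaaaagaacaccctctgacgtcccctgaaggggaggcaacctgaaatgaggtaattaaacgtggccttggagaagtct
Ntsr2: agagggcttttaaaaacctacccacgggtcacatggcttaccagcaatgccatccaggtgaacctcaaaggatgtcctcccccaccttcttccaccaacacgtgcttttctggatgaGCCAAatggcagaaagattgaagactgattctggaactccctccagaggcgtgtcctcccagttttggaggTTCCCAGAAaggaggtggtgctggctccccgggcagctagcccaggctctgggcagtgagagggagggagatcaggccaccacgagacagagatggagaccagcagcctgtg
Acsbg1: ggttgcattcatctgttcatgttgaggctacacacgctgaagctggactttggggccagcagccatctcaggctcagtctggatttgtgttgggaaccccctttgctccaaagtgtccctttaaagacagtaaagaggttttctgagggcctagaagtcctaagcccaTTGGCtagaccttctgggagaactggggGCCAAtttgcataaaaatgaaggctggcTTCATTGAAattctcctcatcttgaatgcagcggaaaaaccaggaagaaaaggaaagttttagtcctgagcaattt
Hepacam: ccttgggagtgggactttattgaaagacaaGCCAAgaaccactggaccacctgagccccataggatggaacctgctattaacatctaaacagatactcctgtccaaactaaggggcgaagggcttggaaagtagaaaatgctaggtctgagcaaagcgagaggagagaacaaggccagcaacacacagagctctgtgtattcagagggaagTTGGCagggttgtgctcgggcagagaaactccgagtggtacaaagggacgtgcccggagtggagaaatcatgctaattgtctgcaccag

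The first homeostatic group held 11 genes of transport and coupling, and all 11 had a knockdown mean above control, with a median log2 ratio of 0.22, against 0.02 in the rescue. Hepacam, an adhesion protein that anchors chloride channels and MLC1 at astrocyte junctions, had log2 ratios of 0.62 and 0.54 in the knockdown, against 0.22 and 0.31 in the rescue. Its knockdown mean was 0.58 (SE 0.12, n = 2, limma adjusted p = 0.0861; 0.0239 with the block), the smallest adjusted p of the 36 genes, and its samples lay above control in both groups without overlap. Gja1, the connexin of astrocyte gap junctions, had 0.35 and 0.55 in the knockdown, against -0.07 and 0.24 in the rescue (knockdown mean 0.45, SE 0.13, adjusted p = 0.168; 0.0453 with the block). Gjb6, its partner connexin, had 0.36 and 0.07 in the knockdown, against -0.17 and -0.19 in the rescue. Each connexin thus had both knockdown values above both rescue values.

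The glutamate transporters behaved alike in the samples. Slc1a2 (GLT-1), which clears most synaptic glutamate in the forebrain, had log2 ratios of 0.42 and 0.34 in the knockdown, against -0.06 and -0.03 in the rescue. Its knockdown mean of 0.38 (SE 0.12) had an adjusted p of 0.180. Slc1a3 (GLAST), the other astrocyte glutamate transporter, had 0.26 and 0.45 in the knockdown, against 0.01 and 0.09 in the rescue (knockdown mean 0.35, SE 0.12, adjusted p = 0.216). For both transporters the knockdown samples lay above the rescue samples, which were within 0.09 of control. Glul, the glutamine synthetase that converts the glutamate taken up, did not share this, with 0.19 and -0.08 in the knockdown, against -0.26 and 0.00 in the rescue. These are means of 2 probe sets that differed. The first had 0.11 and 0.03 in the knockdown, against -0.43 and 0.17 in the rescue. The second had 0.28 and -0.18 in the knockdown, against -0.09 and -0.17 in the rescue. In each probe set the groups overlapped.

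Of the ion and water pathways, Kcnj10 (Kir4.1), the channel of potassium uptake, had 0.30 and 0.24 in the knockdown, against 0.09 and -0.05 in the rescue, without overlap. Slc4a4, a sodium bicarbonate cotransporter, had 0.20 and 0.18 in the knockdown, against -0.29 and -0.45 in the rescue. It was the transport gene farthest below control in the rescue (mean -0.37, SE 0.12, adjusted p = 0.573). Aqp4, the water channel of astrocyte endfeet, had 0.09 and 0.23 in the knockdown, against -0.29 and 0.15 in the rescue, and the groups overlapped. Mlc1, the membrane protein that Hepacam escorts to junctions, had -0.03 and 0.43 in the knockdown, against -0.06 and 0.12 in the rescue. Slc7a10, a transporter of small neutral amino acids including D-serine, had 0.33 and -0.05 in the knockdown, against 0.29 and 0.17 in the rescue, and was the one transport gene with a lower mean in the knockdown than in the rescue.

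The second homeostatic group held 10 genes of astrocyte identity, signalling and metabolism. All 10 knockdown means were above control, except that of Ttyh1 under quantile normalization (-0.0069), with a median of 0.28, against -0.09 in the rescue. Sox9, the transcription factor of the astrocyte lineage, had the most even knockdown repeats of all members, at 0.45 and 0.44 in the knockdown, against -0.22 and -0.19 in the rescue. Its knockdown mean was 0.44 (SE 0.11, adjusted p = 0.134; 0.0476 with the block). Ntsr2, a neurotensin receptor of astrocytes, had 0.42 and 0.84 in the knockdown, against 0.27 and -0.24 in the rescue (knockdown mean 0.63, SE 0.16, adjusted p = 0.134). S100b, a calcium-binding protein, had 0.72 and 0.34 in the knockdown, against 0.23 and -0.50 in the rescue (knockdown mean 0.53, SE 0.19, adjusted p = 0.225; 0.0363 with the block). These 3 genes did not overlap between the groups, although the rescue repeats of Ntsr2 and S100b lay on opposite sides of control.

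Fgfr3, a fibroblast growth factor receptor, had 0.19 and 0.58 in the knockdown, against 0.08 and 0.14 in the rescue. Aldh1l1, a folate enzyme used as a pan-astrocyte marker, had 0.06 and 0.23 in the knockdown, against -0.09 and -0.62 in the rescue, so that most of its gap between groups came from rescue repeat 2. Acsbg1, an acyl-CoA synthetase, had 0.10 and 0.27 in the knockdown, against -0.18 and -0.22 in the rescue. The knockdown samples of all 3 lay above their rescue samples. Aldoc, the brain aldolase of glycolysis, was nearer to control, at 0.22 and 0.02 in the knockdown, against -0.08 and -0.03 in the rescue. The glypican Gpc5 had 0.19 and 0.15 in the knockdown, against -0.49 and 0.26 in the rescue, and its rescue repeats lay to both sides of its knockdown values. The membrane protein Ttyh1 had -0.20 and 0.27 in the knockdown, against -0.03 and 0.46 in the rescue. It was higher in repeat 2 of both groups, and within each repeat it was lower in the knockdown than in the rescue (differences of -0.17 and -0.19). Id3, a target of bone morphogenetic protein signalling, was above control in all 4 samples, at 0.02 and 0.74 in the knockdown, against 0.33 and 0.43 in the rescue, with means of 0.38 in both groups.

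All 6 secreted proteins were above control in both knockdown repeats, with a median of 0.29 over their means, against -0.01 in the rescue. The median was 0.14 in knockdown repeat 1 and 0.41 in knockdown repeat 2, against -0.02 and 0.06 in the rescue repeats. Thbs2, a matricellular thrombospondin that promotes synapse formation, had 0.25 and 0.99 in the knockdown, against -0.30 and 0.15 in the rescue (knockdown mean 0.62, SE 0.19, adjusted p = 0.184; 0.0220 with the block). Its relative Thbs1 had 0.02 and 0.42 in the knockdown, against 0.04 and -0.22 in the rescue, and stood clear of control in knockdown repeat 2 only. Sparcl1 (hevin), another promoter of synapses, had 0.41 and 0.40 in the knockdown, against -0.05 and 0.14 in the rescue (knockdown mean 0.41, SE 0.12, adjusted p = 0.170). Sparc, which opposes hevin at synapses, had 0.03 and 0.60 in the knockdown, against 0.13 and 0.07 in the rescue, with the rescue values between the knockdown values. The lipid carrier Apoe had 0.16 and 0.35 in the knockdown, against 0.02 and -0.01 in the rescue. The chaperone and lipid carrier Clu had 0.12 and 0.38 in the knockdown, against -0.12 and 0.06 in the rescue. Neither carrier overlapped between the groups.

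The reactive and intermediate filament group held 8 genes. All 8 knockdown means were above control, with a median of 0.43, against -0.01 in the rescue, and 5 of the 8 were above control in both knockdown repeats. Gfap, an astrocyte filament protein that is induced in reactive astrocytes, had 0.28 and 0.41 in the knockdown, against -0.46 and -0.31 in the rescue. Its knockdown mean was 0.35 (1.27-fold, SE 0.12, adjusted p = 0.219). Vim, a filament protein shared with other non-neuronal cells, had 0.07 and 0.34 in the knockdown, against -0.09 and -0.07 in the rescue. Nes (nestin), a filament of progenitors and reactive astrocytes, had -0.02 and 0.31 in the knockdown, against -0.27 and -0.41 in the rescue. In all 3 filament genes both rescue values lay below control and below both knockdown values.

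Among the other reactive genes, Cd44, a hyaluronan receptor, had 0.37 and 0.85 in the knockdown, against -0.04 and -0.06 in the rescue (knockdown mean 0.61, 1.53-fold, SE 0.14, adjusted p = 0.108; 0.0296 with the block). Serpina3n, a secreted protease inhibitor, had 0.58 and 0.46 in the knockdown, against 0.01 and 0.05 in the rescue (knockdown mean 0.52, SE 0.12, adjusted p = 0.103; 0.0328 with the block). Cp (ceruloplasmin), a copper-binding ferroxidase, had 0.31 and 1.06 in the knockdown, against 0.17 and 0.08 in the rescue (knockdown mean 0.69, SE 0.17, adjusted p = 0.128; 0.0354 with the block). None of these 3 overlapped between the groups, and Serpina3n was the most even of them between repeats.

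Lcn2 and Tnc had no settled direction in the knockdown. Lcn2 (lipocalin-2), a secreted protein strongly induced in inflamed astrocytes, had -0.31 and 2.43 in the knockdown, against 0.75 and 1.15 in the rescue. Its knockdown mean of 1.06 (2.09-fold) carried an SE of 0.50 (adjusted p = 0.345) and came from repeat 2 alone, where the ratio to control was 5.39. In the rescue it was above control in both repeats (mean 0.95, SE 0.50, adjusted p = 0.722). Tnc (tenascin-C), an extracellular matrix protein, had -0.17 and 0.82 in the knockdown, against -0.04 and 0.90 in the rescue, high in repeat 2 and near control in repeat 1 whatever the group.

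Fabp7 (BLBP), a fatty acid binding protein of radial glia and immature astrocytes, was the one member below control on average in the knockdown. It had -0.04 and -0.51 in the knockdown, against -0.17 and -0.59 in the rescue, below control in all 4 samples. Its means were -0.27 (SE 0.16, adjusted p = 0.441) in the knockdown and -0.38 (SE 0.16, adjusted p = 0.661) in the rescue.

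The homeostatic genes (transport and identity, 21) were then set against the 8 reactive genes. The medians were 0.22 for homeostatic and 0.18 for reactive genes in knockdown repeat 1, and 0.27 for homeostatic and 0.64 for reactive genes in knockdown repeat 2. Homeostatic minus reactive was thus 0.04 in repeat 1 and -0.36 in repeat 2, and the sign of the difference was not the same in the 2 repeats. Without Lcn2 the reactive medians were 0.28 in knockdown repeat 1 and 0.46 in knockdown repeat 2. Each was above the homeostatic median of its repeat, so the sign was then the same in both repeats. In the rescue the homeostatic medians were -0.06 and 0.00, and the reactive medians -0.04 and -0.0013. The difference in the knockdown was not tested, since genes are not replicates.

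Between the 2 knockdown repeats the homeostatic genes differed in both directions, and most reactive genes were higher in repeat 2. Over the homeostatic genes the median of repeat 2 minus repeat 1 was -0.01, with 10 of 21 higher in repeat 2, and single genes ran from -0.39 (Slc7a10) to 0.72 (Id3). The median size of their gap, whatever its sign, was 0.199, beside 0.198 over all genes. Over the reactive genes it was 0.40, with 7 of 8 higher in repeat 2 and Serpina3n the exception. The secreted genes stood between these, with a median of 0.33 and 5 of 6 higher in repeat 2. Over all genes the median was 0.02. In the rescue the same medians were 0.05 for the homeostatic, 0.03 for the reactive and 0.07 for the secreted genes.

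**Figure D2:**
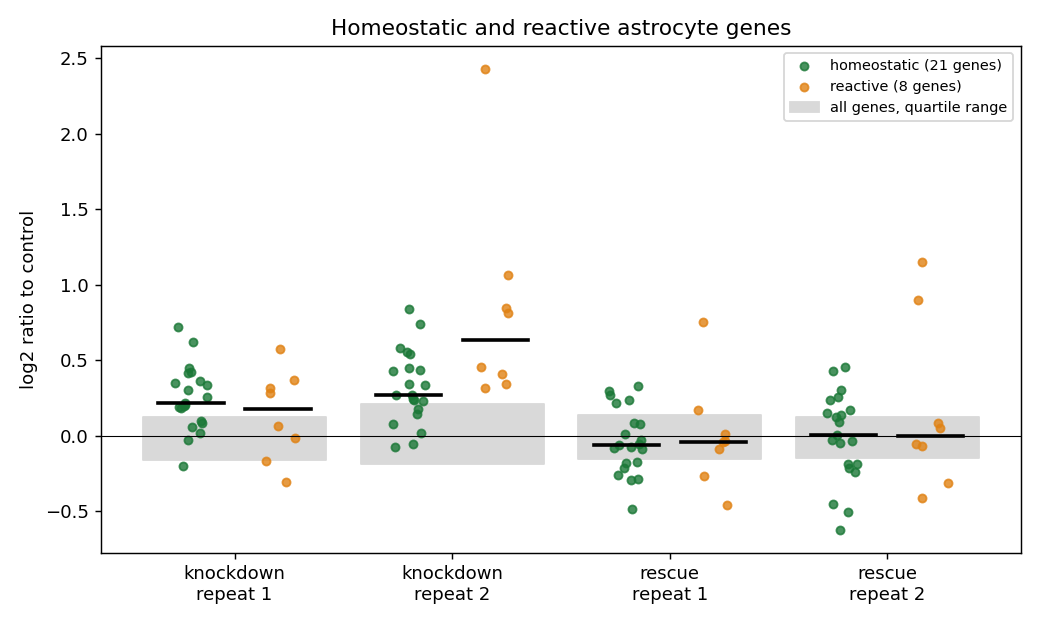
Log2 ratio to control of homeostatic genes (green, 21 genes) and reactive genes (orange, 8 genes) in each of the 4 samples, with a black bar at each median and a grey band from the lower to the upper quartile of single genes over all 19938. The homeostatic medians are 0.22 and 0.27 in the knockdown repeats, the reactive medians 0.18 and 0.64, and in the rescue the homeostatic medians are -0.06 and 0.00 and the reactive medians -0.04 and -0.0013.

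The comparison of rescue with control gave no called member and no called gene in limma (0% of all genes higher and 0% lower). At an unadjusted p under 0.05, 0 members were higher and 5 lower, where 588 of the 19938 genes were higher and 4.49% of all genes lower. These were Gfap at -0.38 (SE 0.12, adjusted p = 0.568), Slc4a4 at -0.37, Fabp7 at -0.38, Aldh1l1 at -0.35 and Nes at -0.34, each below control in both repeats. With the repeat as a block 0 members passed, beside 0.125% of all genes. Of the 9 members above control in both rescue repeats, those with the highest means were Lcn2 (0.95), Id3 (0.38), Hepacam (0.26) and Slc7a10 (0.23), with adjusted p between 0.677 and 0.756. Leaving out either knockdown sample, which leaves only the rescue samples to estimate the spread, called 1 member, Lcn2, as higher, beside 0.361% of all genes.

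The comparison of knockdown with rescue had the shRNAs in both groups, and within a repeat the control array cancels. Both knockdown values lay above both rescue values for 24 of the 36 members, beside 16.5% of all genes. In 0 members did both lie below, beside 3018 of the 19938 genes. For 10 members both knockdown values were above control and both rescue values below it, beside 4.42% of all genes. Knockdown minus rescue was above 0 in both repeats for 27 members, beside 30.1% of all genes, and below 0 in both for Ttyh1 and Tnc. The median difference over the members was 0.25 in repeat 1 and 0.36 in repeat 2, beside -0.01 and 0.05 over all genes. No member passed the limma threshold, which 0.0401% of all genes passed as higher and 0.0301% as lower. None passed with the repeat as a block, where 0.186% of all genes were higher and 86 of the 19938 lower. At an unadjusted p under 0.05, 11 members were higher and 0 lower, where 2.81% of all genes were higher and 799 of the 19938 lower. Without knockdown repeat 1, Thbs2, Cd44, Lcn2 and Cp passed as higher (0.602% of all genes), and without knockdown repeat 2, Lcn2 passed as lower (0.562% of all genes).

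Gfap had the widest of these mean differences and one of the most even, at 0.74 in repeat 1 and 0.72 in repeat 2 (mean 0.73, 1.66-fold, SE 0.17, n = 2 per group, limma adjusted p = 0.300; 0.0841 with the block). Roughly equal shares of it came from the knockdown above control (0.35) and from the rescue below control (-0.38). Thbs2 differed by 0.55 and 0.84 (mean 0.70, adjusted p = 0.627), S100b by 0.48 and 0.85 (mean 0.66, adjusted p = 0.639) and Cd44 by 0.41 and 0.90 (mean 0.66, adjusted p = 0.459). Sox9 differed by 0.66 and 0.62 (mean 0.64, SE 0.16, adjusted p = 0.341) and Slc4a4 by 0.50 and 0.63 (mean 0.56, SE 0.17, adjusted p = 0.433). The differences of these genes were positive in every repeat, while Lcn2 differed by -1.06 in repeat 1 and 1.28 in repeat 2. Id3 (-0.31 and 0.31) and Sparc (-0.09 and 0.53) also changed sign between repeats.

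**Figure D3:**
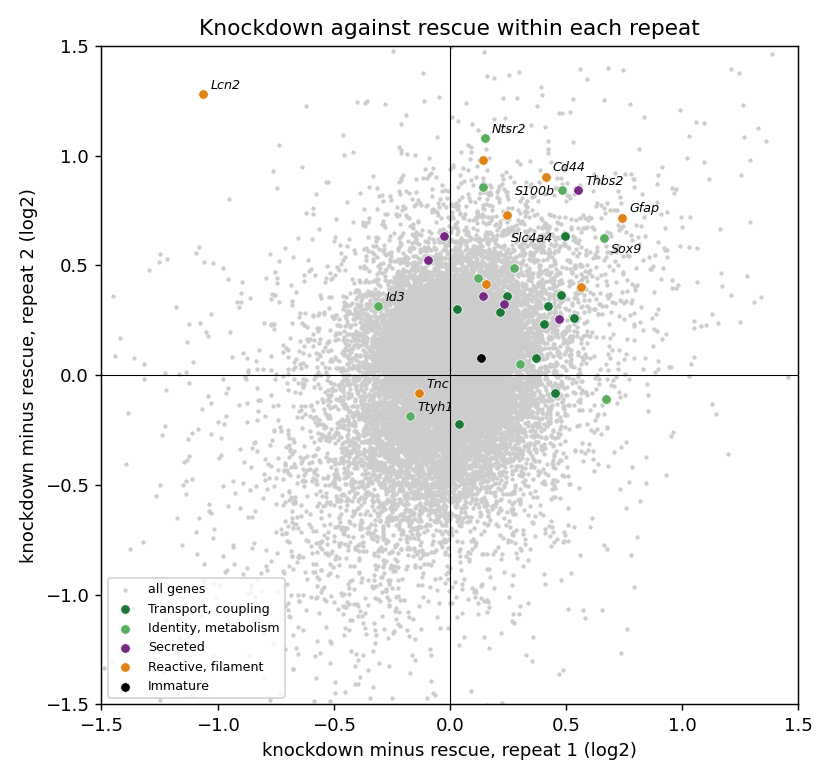
Knockdown minus rescue on the log2 scale in repeat 1 (horizontal) and repeat 2 (vertical) for all genes (grey) and for the astrocyte genes coloured by group. Of the 36 members 27 lie above 0 on both axes, with Gfap at 0.74 and 0.72 and Lcn2 at -1.06 and 1.28, and 96 genes that are not members lie outside the axes, which end at 1.5 on either side.

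Astrocyte-enriched genes outside the set mostly lay on the same side. Their list, like the members, was chosen with earlier results of these data known, so it is not independent of them. Of 40 listed, 39 were measured, and 34 had a knockdown mean above control, with a median of 0.26, against -0.04 in the rescue. Both knockdown repeats were above control for 27 of the 39, beside 30.5% of all genes, and 0 passed the limma threshold in any comparison. At an unadjusted p under 0.05, 13 were higher and 0 lower in the knockdown, beside 6.93% and 9.04% of all genes, and 5 were higher with the block, beside 1.91%. Of the genes with the same sign in both knockdown repeats, those farthest from control were Cyp2d22, F3, Fam107a, Phkg1 and Prodh, all above it. Cyp2d22, a cytochrome P450, had 0.68 and 1.36 in the knockdown, against -0.07 and 0.44 in the rescue (knockdown mean 1.02, adjusted p = 0.0737; 0.00329 with the block). F3, tissue factor, had 0.57 and 0.51 in the knockdown, against 0.04 and 0.05 in the rescue. The knockdown means of the others were 0.72 for Fam107a, 0.44 for Phkg1, a phosphorylase kinase subunit, and 0.55 for Prodh, proline dehydrogenase. Knockdown means lay below control for 5 genes, Slc6a11, Slco1c1, Dio2, Fjx1 and Gabrg1. Dio2 had -0.91 and 0.56 in the knockdown, against 0.34 and 0.04 in the rescue. Slco1c1 had -0.53 and 0.39 in the knockdown, and Slc6a11 had 0.40 and -0.41. Fjx1 had -0.21 and -0.17 in the knockdown, against 0.19 and 0.14 in the rescue, without overlap.

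Lists of reactive genes outside the set lay high in knockdown repeat 2. Of 7 pan-reactive genes (induced in astrocytes by several kinds of injury) the medians were 0.00 and 0.91 in the knockdown repeats, against 0.53 and 0.17 in the rescue. Of 12 genes known from astrocytes after lipopolysaccharide, 7 were measured, with medians of -0.22 and 0.54 in the knockdown, against -0.17 and 0.05 in the rescue. Of 12 genes known from ischaemia the medians were 0.13 and 0.57 in the knockdown, against 0.09 and 0.16 in the rescue. No gene of the 3 lists passed the limma threshold in any comparison. At an unadjusted p under 0.05, the knockdown had 2 higher genes of the pan-reactive list, 2 higher and 1 lower of the lipopolysaccharide list and 5 higher of the ischaemia list. The shares of all genes were 6.93% higher and 9.04% lower in the knockdown. In the rescue at that p, 2 pan-reactive and 2 ischaemia genes were higher and 1 lipopolysaccharide gene lower. Of the 19938 genes 588 were higher there and 4.49% lower. In lists of 7, 7 and 12 measured genes such small counts are a description only. With the block, Steap4 of the pan-reactive list, Serping1 and Srgn of the lipopolysaccharide list and Clcf1, Cd109 and Emp1 of the ischaemia list were higher in the knockdown, beside 1.91% of all genes. Steap4, a metalloreductase, had 0.25 and 1.20 in the knockdown, against -0.06 and 1.04 in the rescue, high in repeat 2 of both groups. Osmr, the oncostatin M receptor, did not pass with the block (adjusted p = 0.0502) and had 0.42 and 0.91 in the knockdown, against 0.53 and 0.01 in the rescue. Serping1, an inhibitor of complement C1, had 0.43 and 1.46 in the knockdown, against 0.24 and 0.29 in the rescue. Cd109, a membrane protein of the ischaemia list, had 0.32 and 1.38 in the knockdown, against 0.04 and 0.41 in the rescue. Ptgs2 (COX-2), the inducible prostaglandin synthase of the ischaemia list, went the other way and was chosen for mention after its values were seen. It had -1.25 and 0.19 in the knockdown, against 2.29 and 2.26 in the rescue, without overlap. Its rescue mean was 2.28 (4.86-fold, SE 0.28, limma adjusted p = 0.328; 0.00898 with the block), and knockdown minus rescue was -2.81 (SE 0.39, adjusted p = 0.0748; 0.00757 with the block). In Cd14 of the same list, too, both knockdown values lay below both rescue values. Of the pan-reactive list, Timp1 had -0.49 and 0.17 in the knockdown, against 1.92 and 0.02 in the rescue. Cxcl10 had -0.10 and 1.17 in the knockdown, against 0.62 and 1.07 in the rescue. These genes were also named after their values were seen. Fkbp5, a chaperone induced by glucocorticoids, was below control in all 4 samples, at -0.24 and -0.57 in the knockdown, against -0.21 and -0.42 in the rescue.

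Markers of other cell types were read in the same samples. Of 12 neuronal markers 8 had a knockdown mean below control, with medians of -0.08 and -0.36 in the knockdown repeats, against 0.02 and -0.02 in the rescue. Their knockdown log2 ratios ran from -0.54 to 0.88 in repeat 1 and from -0.79 to 1.58 in repeat 2, where the highest was the neurofilament chain Nefm, and Gap43, a growth cone protein, had -0.54 and -0.55. Both knockdown values lay below both rescue values for 6 neuronal markers (Rbfox3, Snap25, Map2, Elavl4, Syt1 and Gap43), beside 3018 of the 19938 genes. They lay above for 3 (Tubb3, Nefl and Ina), beside 16.5% of all genes. Against the rescue, 3 neuronal markers were higher and 4 lower at an unadjusted limma p under 0.05, beside 2.81% of all genes higher and 799 of the 19938 lower. Of 12 fibroblast and pericyte markers 10 had a knockdown mean above control, with medians of 0.02 and 0.49 in the knockdown repeats, against -0.06 and -0.19 in the rescue. Of these Col6a1, a collagen chain, had 0.46 and 1.03 in the knockdown, against 0.04 and -0.03 in the rescue. Of 10 endothelial markers the medians were 0.03 and 0.25 in the knockdown, against 0.08 and 0.06 in the rescue. The 11 measured oligodendrocyte lineage markers had medians of 0.03 and 0.13 in the knockdown, against -0.07 and -0.13 in the rescue. The 12 microglia markers had medians of -0.40 and 0.06 in the knockdown, against -0.41 and -0.10 in the rescue. No gene of these 5 lists passed the limma threshold in any comparison. At an unadjusted p under 0.05, the knockdown had 4 higher fibroblast and pericyte markers, 2 higher and 3 lower neuronal markers and 0 of the other 3 lists, beside 6.93% of all genes higher and 9.04% lower. With the block 1 fibroblast or pericyte marker was higher, and 1 neuronal marker was higher and 2 were lower, beside 1.91% of all genes higher and 3.48% lower. In knockdown repeat 1, where the fibroblast, endothelial and oligodendrocyte medians lay between 0.02 and 0.03, the homeostatic astrocyte median was 0.22. In knockdown repeat 2 the homeostatic median was 0.27, below the fibroblast median of 0.49 and above the oligodendrocyte median of 0.13, with the endothelial median at 0.25. For knockdown minus rescue the medians over the means were 0.46 for fibroblast, 0.05 for endothelial and 0.08 for oligodendrocyte markers, against 0.30 for homeostatic genes. All 12 fibroblast and pericyte means and 19 of 21 homeostatic means were above 0 there. The part of other cell types in the shift of the astrocyte genes was not tested.

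**Figure D4:**
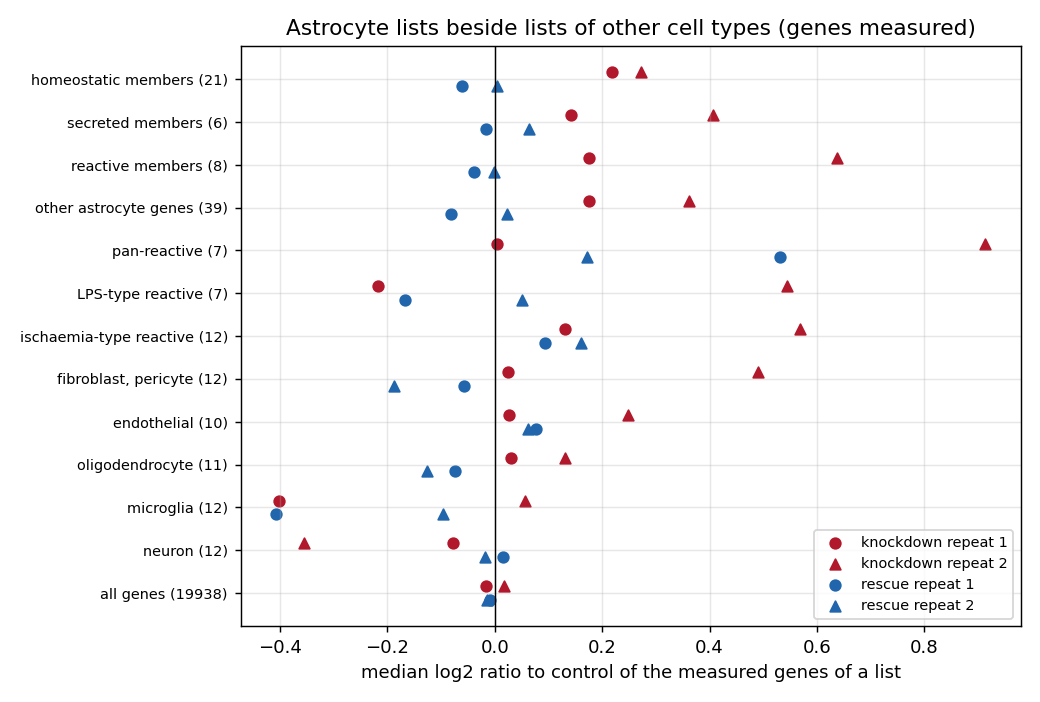
Median log2 ratio to control of the measured genes of each list (number in brackets) in knockdown samples (red) and rescue samples (blue), with circles for repeat 1 and triangles for repeat 2. Homeostatic members and other astrocyte genes lie above 0 in both knockdown repeats, at 0.22 and 0.27 and at 0.17 and 0.36, and the neuronal list lies below 0 in both, at -0.08 and -0.36.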

How the data were processed

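RNA of 2 knockdown and 2 rescue samples was read on Affymetrix mouse Gene 1.0 ST arrays. Per the labels, the authors deposited linear ratios, in which a sample's array is divided by the control array of its own repeat. The control arrays were not analysed here, and the sources used here do not give the background correction, normalization or genome build. Without intensities, dim probe sets could not be told from bright ones. Precision is limited by the number of arrays. Of 35399 probe sets, 21789 had exactly 1 gene symbol in the platform annotation, 1621 had several and 11989 were not listed. For those with 1 symbol the log2 of the deposited ratios, not centred again, was averaged over the probe sets of a symbol, which left 19938 genes.

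The tests used lmFit and eBayes of limma 3.58.1 under R 4.3.3, two-sided and over all genes, with 1 coefficient per group, 2 residual and 6.11 prior degrees of freedom, and p-values adjusted by the Benjamini-Hochberg method over all genes. Equality with control is a log2 ratio of 0. The control's own spread enters such a test only through its difference between repeats, since knockdown and rescue of a repeat share 1 control array. Samples of the same number carry the same code in their titles, read here as a shared repeat, and are therefore paired. Their deviations from the group means correlated at 0.305 across genes. The scripts were tested on simulated data.

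The members and lists were chosen with earlier results of these data known. Every measured member was named. Of the lists outside the set, most genes described came from the 5 (3 for other cell types) with the same sign in both knockdown repeats and ranked highest by the repeat nearer to control. Others were named for different reasons. Neuronal markers were also named where the groups did not overlap, and astrocyte-enriched genes where the knockdown mean was below control. Ptgs2, Cd14, Timp1 and Cxcl10 were named after their values were seen, and genes that passed with the block were listed. The alternatives tried were quantile normalization, centring, other handling of probe sets, the repeat as a block, a robust prior, fits to 1 group alone and leaving out each sample.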

Additional observations from a re-analysis of the deposited data

Results flagged for a closer look

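For 10 astrocyte genes both knockdown repeats stood above control while both rescue repeats stood below it, so the groups lay on opposite sides of control, as they did for 4.42% of all genes. The difference itself, knockdown minus rescue, was tested by limma and passed the adjusted threshold for none of them. The homeostatic genes among them were Slc1a2 with a difference of 0.421 on the log2 scale (adjusted p = 0.628), Slc4a4 with 0.564 (adjusted p = 0.433), Gjb6 with 0.398 (adjusted p = 0.744), Aldh1l1 with 0.499 (adjusted p = 0.719), Aldoc with 0.177 (adjusted p = 1.00), Acsbg1 with 0.383 (adjusted p = 0.739) and Sox9 with 0.643 (adjusted p = 0.341). The reactive and filament genes were Gfap with 0.730 (adjusted p = 0.300), Vim with 0.286 (adjusted p = 0.941) and Cd44 with 0.659 (adjusted p = 0.459). Each is a mean of 2 repeats. That the difference was positive in both follows from how these genes were picked.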

How the results depend on the processing

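Over the members, 1152 values were recomputed under alternatives. Of these 1090 kept direction and side of the threshold, 22 passed it with the same sign, and 40 changed sign, whether or not they passed it. None lost a call since none was made. With the repeat as a replicate block, the paired fit called 8 members for knockdown against control in place of 0, and 1074 genes in place of 27 higher and 34 lower, 25 in place of 0 for rescue against control, and 123 in place of 8 higher and 6 lower for knockdown against rescue, and changed no other member call. For knockdown against control, quantile normalization called 20 genes and the knockdown columns alone 12. For rescue against control, quantile normalization called 1 gene and the rescue columns alone 176, with 1 member (Lcn2). For knockdown against rescue, quantile normalization called 2 genes, and centring, the median of probe sets, every probe set on its own and the robust prior each 4. Leaving out 1 sample, where a lone sample is assumed to vary like the other group, gave 12 to 1272 genes and 0 to 7 members for knockdown against control, 0 to 176 genes and 0 to 1 members for rescue against control, and 0 to 350 genes and 0 to 4 members for knockdown against rescue. The 7 members were called without knockdown replicate 1 and were Cd44, Cp, Id3, Lcn2, Ntsr2, Thbs2 and Tnc.

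Leaving out 1 sample gave medians of 0.22 to 0.27 for homeostatic genes in the knockdown, -0.056 to 0.029 for all members, -0.040 to -0.0013 for reactive and -0.016 to 0.065 for secreted genes in the rescue, and 0.28 to 0.42 for all members and 0.27 to 0.38 for homeostatic genes between knockdown and rescue. Homeostatic minus reactive was -0.033 to 0.0049 in the rescue. Between knockdown and rescue the homeostatic median was 0.27 with quantile normalization and 0.29 with centring.

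Signs turned for Ttyh1 in the knockdown with quantile normalization (-0.0069), and between knockdown and rescue for Id3 with quantile normalization (-0.13) and centring (-0.0095) and Lcn2 with quantile normalization (-0.26). Leaving out 1 sample turned the knockdown ratio to control of Glul (-0.076 to 0.19), Slc7a10 (-0.054 to 0.33), Mlc1 (-0.029 to 0.43), Ttyh1 (-0.20 to 0.27), Nes (-0.018 to 0.31), Lcn2 (-0.31 to 2.43) and Tnc (-0.17 to 0.82). It turned the rescue ratio of Glul (-0.26 to 0.0036), Kcnj10 (-0.047 to 0.087), Aqp4 (-0.29 to 0.15), Mlc1 (-0.061 to 0.12), Gja1 (-0.073 to 0.24), S100b (-0.50 to 0.23), Ntsr2 (-0.24 to 0.27), Gpc5 (-0.49 to 0.26), Ttyh1 (-0.031 to 0.46), Apoe (-0.013 to 0.023), Clu (-0.12 to 0.057), Sparcl1 (-0.054 to 0.14), Thbs1 (-0.22 to 0.045), Thbs2 (-0.30 to 0.15) and Tnc (-0.037 to 0.90). It turned knockdown minus rescue for Slc7a10 (-0.28 to 0.10), Mlc1 (-0.060 to 0.40), Gpc5 (-0.090 to 0.65), Ttyh1 (-0.42 to 0.066), Id3 (-0.36 to 0.36), Sparc (-0.067 to 0.50), Lcn2 (-1.26 to 1.48), Tnc (-0.60 to 0.39) and Fabp7 (-0.13 to 0.34). Apart from fits that rest on fewer samples, the causes were not tested. Without intensities, the signal over background that limits each gene is unknown.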
